A study of Mus musculus with 6 samples.

Results

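The interstitial matrix of the heart was followed through 37 genes for collagens, microfibril and elastic fibre proteins, proteoglycans, crosslinking enzymes, proteases, adhesive glycoproteins and the ligands of the transforming growth factor beta (TGF-beta) family. They were taken by symbol from a list of matrix genes, and all 37 were found among the 17447 rows of a table of RNA counts per gene. One of them, Ctgf, is listed there under its current symbol, Ccn2. Values are described in 3 heart samples from sham-operated wild-type mice, which had the anaesthesia, the opened abdomen and the exposed kidneys but no removal of kidney tissue. The other 3 libraries came from hearts of wild-type mice with chronic kidney disease (CKD) after subtotal nephrectomy, and they were not used for the reasons given below. The labels name no strain, sex, age or time of sampling, and do not state whether a whole heart or a chamber was taken. They number the sham samples 1 to 3 without saying that each is its own animal. They are called hearts below, and part of the spread between them may be technical.

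The matrix holds the muscle cells of the heart in place and carries their force. Fibroblasts make most of the fibrillar collagen, while endothelial and mural cells contribute much of the basement membrane. Fibrillar collagens assemble outside the cell into rope-like fibrils, lysyl oxidases crosslink them with elastin, small proteoglycans set the spacing of the fibrils, and metalloproteinases cut them. TGF-beta ligands are stored in the matrix in a latent form and, once released, drive fibroblasts to make more of it. Gain of this matrix is known as fibrosis, a common feature of the heart in kidney disease.

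The row labels were checked first. Over the whole table, Spearman's rho lay between 0.982 and 0.985 for sham columns and between 0.984 and 0.987 for CKD columns. When a sham column was set against a CKD column, all 9 values fell between -0.0586 and -0.0528. Over the 37 matrix rows alone, rho was 0.907 to 0.971 within sham, 0.984 to 0.989 within CKD and 0.337 to 0.418 between the groups. All 37 averaged at least 1 CPM (counts scaled to a library total of 1000000) in sham, and 11 of them averaged under 1 CPM in the CKD columns. Fn1, the gene of fibronectin, had 926, 641 and 1682 counts in the sham hearts, where the row of that name had 0, 1 and 0 in the CKD columns. For Mmp2 the sham counts were 1085, 553 and 1474, and those under its name in CKD 0, 0 and 1. The labels of the CKD columns therefore did not name their values, and no CKD value is read as the level of a gene.

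Each sham library held 10474487 to 12669724 counts, and a gene at 0 could reach 0.286 CPM unseen in the shallowest of them, from counting error alone. The defining markers of heart muscle were abundant. The 10 cardiomyocyte markers summed to 125409, 138026 and 123888 CPM in sham 1, 2 and 3, led by the cardiac myosin Myh6. Sham 2 stood apart from the other libraries in markers of several other cell types. Its 5 atrial markers summed to 68.5 CPM against 2423 in sham 1 and 449 in sham 3, and Myl7, the atrial light chain, was at 1.43 CPM there against 497 and 81.5. The 3 fat markers summed to 1.15 CPM in sham 2, against 14.5 and 15.2 in the others. Chad, a cartilage marker, held 152, 0 and 433 counts in sham 1, 2 and 3. Of the other cartilage markers listed, Acan held 4, 1 and 23 counts, Col2a1 1, 0 and 1, and Sox9 44, 17 and 62. Acan and Col2a1 thus averaged under 1 CPM, and whether cartilage was present was not tested. The matrix genes also stood apart in sham 2, so class sums and spreads are given with and without it, and gene values heart by heart.

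Promoter sequence is shown for 5 matrix genes, the pair of type IV collagen genes and 3 with wider spreads, to set the letters beside the values below. Spread is given as the coefficient of variation (CV, the SD as a percentage of the mean over the 3 hearts), which was 54.7% to 83.8% for those 3. The RefSeq promoter table of build GRCm38.p6 runs from 250 bases before to 50 bases after each gene's start and had windows for 21 of the 37 genes. The windows are printed 5′ to 3′ on the gene's own strand, with the TATA box letters TATAAA, those of the CCAAT box and the GC box letters GGGCGG in capitals wherever they occur on either strand. Col3a1 (chr1:45311288-45311587, plus strand) and Col1a2 (chr6:4505368-4505667, plus strand) are fibrillar collagen genes. Ltbp2 (chr12:84876442-84876741, minus strand) was the gene with the widest spread among those of at least 10 CPM.
Col3a1: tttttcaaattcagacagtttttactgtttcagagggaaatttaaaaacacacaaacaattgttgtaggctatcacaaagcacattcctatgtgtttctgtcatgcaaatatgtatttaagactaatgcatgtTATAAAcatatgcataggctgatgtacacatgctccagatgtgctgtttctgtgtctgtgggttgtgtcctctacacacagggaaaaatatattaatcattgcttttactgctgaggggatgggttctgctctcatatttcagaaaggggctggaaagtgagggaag
Col1a2: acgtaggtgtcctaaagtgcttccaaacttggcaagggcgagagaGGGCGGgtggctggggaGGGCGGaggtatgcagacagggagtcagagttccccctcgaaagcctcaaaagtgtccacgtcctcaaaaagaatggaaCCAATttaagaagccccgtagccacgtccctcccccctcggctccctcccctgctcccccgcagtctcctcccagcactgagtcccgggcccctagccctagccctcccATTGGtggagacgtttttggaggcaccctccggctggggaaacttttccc
Ltbp2: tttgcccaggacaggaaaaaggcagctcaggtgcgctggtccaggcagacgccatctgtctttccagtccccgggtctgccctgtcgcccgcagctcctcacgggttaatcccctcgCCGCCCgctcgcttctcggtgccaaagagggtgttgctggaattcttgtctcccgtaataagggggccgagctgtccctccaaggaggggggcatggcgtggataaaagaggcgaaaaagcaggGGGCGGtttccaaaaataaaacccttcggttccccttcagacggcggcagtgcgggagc

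Col4a1 (chr8:11312777-11313076, minus strand) and Col4a2 (chr8:11312555-11312854, plus strand), whose chains join in 1 basement membrane molecule, are transcribed away from each other. Their windows share 78 bases, and their spread between hearts, given below, was 36.5% and 23.8% of the mean.
Col4a1: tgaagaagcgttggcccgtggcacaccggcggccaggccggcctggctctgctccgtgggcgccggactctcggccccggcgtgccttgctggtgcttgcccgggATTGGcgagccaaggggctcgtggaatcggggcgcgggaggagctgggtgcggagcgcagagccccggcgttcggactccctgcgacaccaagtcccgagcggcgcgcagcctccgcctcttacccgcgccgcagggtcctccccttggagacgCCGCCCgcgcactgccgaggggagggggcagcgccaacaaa
Col4a2: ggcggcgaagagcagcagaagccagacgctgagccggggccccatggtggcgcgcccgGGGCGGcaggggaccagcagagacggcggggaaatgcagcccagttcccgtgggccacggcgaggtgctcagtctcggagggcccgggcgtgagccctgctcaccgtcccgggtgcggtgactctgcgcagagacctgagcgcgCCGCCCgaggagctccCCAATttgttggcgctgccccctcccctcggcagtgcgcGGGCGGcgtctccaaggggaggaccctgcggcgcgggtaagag

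The Col3a1 window held TATAAA once and neither of the other motifs in capitals, at 37.7% G and C. The Col4a1 and Col4a2 windows were at 74.0% and 73.7% G and C, with CCAAT once in each and GGGCGG once in Col4a1 and 3 times in Col4a2. Among the 21 matrix genes, TATAAA was found in 5 (23.8%, against 15.7% of the 27025 genes in the table), CCAAT in 8 (38.1%, against 41.1%) and GGGCGG in 12 (57.1%, against 38.2%). CAGAC, a short motif that SMAD proteins can bind, was found in 13 (61.9%, against 53.2%), and GGAATG, the core of the TEAD motif, in 3 (14.3%, against 16.6%). Both strands were searched, and none of the motifs contains another. These matches describe letters only.

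Together the 37 genes took 0.558%, 0.288% and 0.659% of the counts in sham 1, 2 and 3, a mean of 0.502% ± 0.192 (SD, n = 3). Sham 2 was lowest and sham 3 highest. In bulk tissue, fewer cells of a type and less RNA per cell cannot be told apart, here or in any value below. Classes were compared by their summed share of counts, which scales with transcript length and is no share of molecules. The proteoglycans came first with 0.141% ± 0.0438, followed by the basement membrane and network collagens with 0.121% ± 0.0410. The adhesive glycoproteins took 0.0768% ± 0.0254 and the fibrillar collagens 0.0729% ± 0.0422. The other 5 classes together held less than the proteoglycans alone, with the TGF-beta ligands last at 0.00830% ± 0.00226. The differences between the first 2 classes, and between the next 2, were smaller than their SD over hearts. Within each heart the proteoglycans were still above the basement membrane and network collagens. Their shares were 0.162%, 0.0908% and 0.170% in sham 1, 2 and 3, against 0.130%, 0.0767% and 0.157%. The order of the adhesive glycoproteins and the fibrillar collagens turned without sham 2, where the fibrillar collagens summed to 949 CPM and the adhesive glycoproteins to 913 CPM.

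Scaled to transcript length, as CPM per kb of the longest protein-coding GENCODE transcript, Dcn was the most abundant of the 37 genes in each of the 3 hearts, at 473 ± 117 CPM per kb (SD, n = 3). Sparc at 199 ± 55.9 and Bgn at 199 ± 82.8 CPM per kb followed and did not differ beyond their spread. Col4a1 and Col4a2 came next with 84.3 ± 30.8 and 74.9 ± 17.8 CPM per kb, and Col3a1 with 48.9 ± 29.98. This order depends in part on the transcript model. With the union of all annotated exons as the length, Dcn stood at 142, Sparc at 121 and Bgn at 78.8 CPM per kb. At the other end, Lox reached 1.18 ± 0.505 and Spp1 2.10 ± 1.99 CPM per kb.

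**Figure D1:**
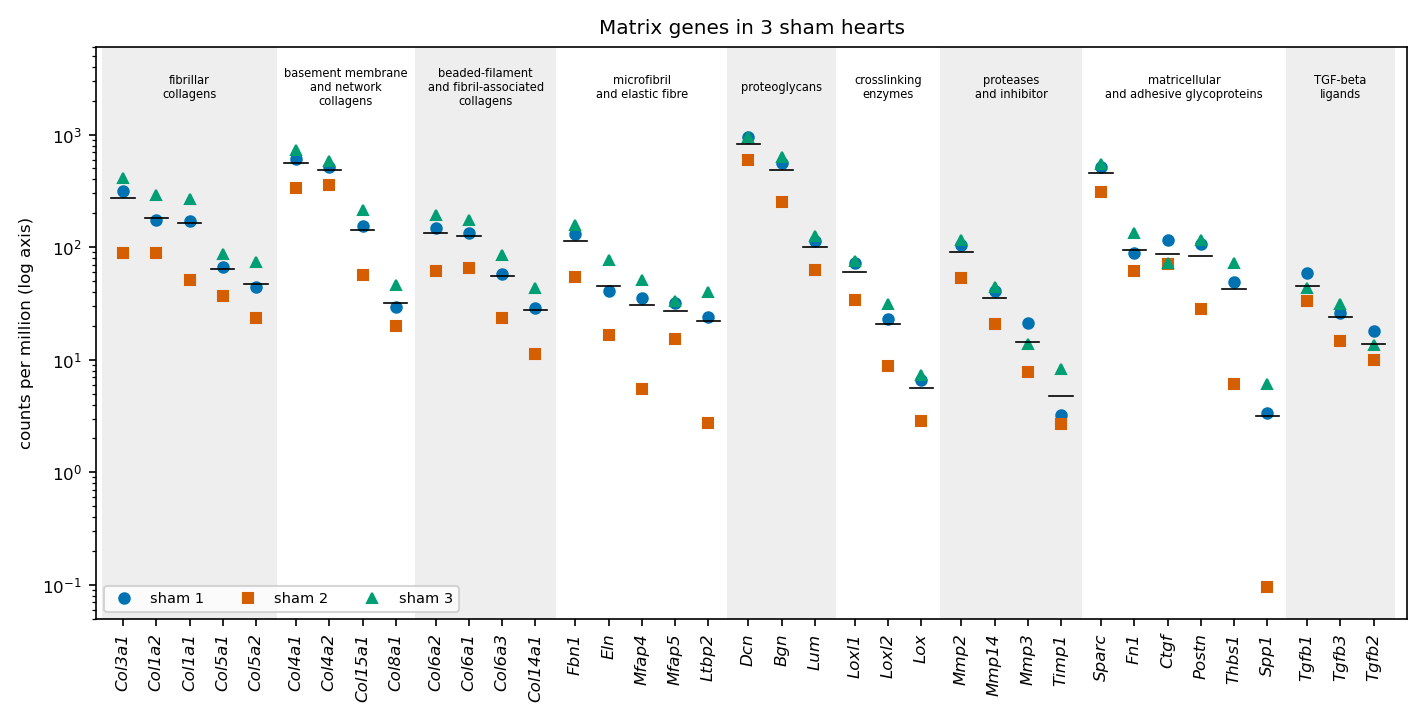
Level of each of the 37 matrix genes, in CPM on a log axis, in sham 1 (circles), sham 2 (squares) and sham 3 (triangles), grouped by class, with a line at the mean of the 3 hearts. The squares of sham 2 are the lowest point of each gene, with Spp1 at 0.0955 CPM at the bottom and Dcn at 593 CPM at the top of that heart.

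The 5 fibrillar collagen genes held the structural rope of the interstitium, and all 5 were ordered sham 2, sham 1, sham 3 from low to high. Col1a1, which encodes the alpha 1 chain of type I collagen, the main collagen of the heart, held 1803, 530 and 3364 counts (172, 50.6 and 266 CPM) in sham 1, 2 and 3. Col3a1, the sole chain of type III collagen, held 3288, 923 and 5242 counts (314, 88.1 and 414 CPM). Sham 2 was thus at 0.231 of the mean of the other hearts for Col1a1 and at 0.242 for Col3a1. The partner chain of type I collagen, Col1a2, differed less, with 173, 88.3 and 288 CPM and a ratio of 0.383. Type V collagen, which starts fibrils and limits their width, had the 2 smallest CVs of the class, the larger being 53.9% (Col5a2). Col5a1 held 696, 388 and 1112 counts (66.4, 37.04 and 87.8 CPM) and Col5a2 was at 43.9, 23.3 and 73.6 CPM. Sham 3 exceeded sham 1 by 1.32-fold for Col3a1 and Col5a1 and by 1.68-fold for Col5a2, the extremes of the class.

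Among the basement membrane and network collagens, the type IV chains were high and comparatively even. Col4a1 held 6342, 3502 and 9294 counts (605, 334 and 734 CPM) and Col4a2 5383, 3726 and 7338 counts (514, 356 and 579 CPM) in sham 1, 2 and 3. Col4a2 had the smallest CV of all 37 genes, at 23.8%. Col15a1, a collagen of the zone between basement membrane and interstitium, differed more between the hearts. It held 1622, 596 and 2709 counts (155, 56.9 and 214 CPM), with sham 2 at 0.309 of the others. Col8a1, a short-chain collagen of vessel walls, was at 29.4, 20.0 and 46.4 CPM, so that sham 1 lay nearer to sham 2 than to sham 3.

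Type VI collagen forms beaded filaments next to the cell surface from 3 chains. Col6a2, the highest of the class by count, held 1562, 638 and 2429 counts (149, 60.9 and 192 CPM). Col6a1 held 1415, 689 and 2216 counts (135, 65.8 and 175 CPM), and Col6a3 was at 57.6, 23.4 and 85.7 CPM. All 3 chains shared the order of the fibrillar genes, with sham 2 at 0.326 to 0.424 of the other hearts. Col14a1, a collagen that binds to the surface of fibrils, held 299, 118 and 549 counts (28.5, 11.3 and 43.3 CPM) and had the largest CV of the class, 57.9%.

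The microfibril and elastic fibre genes had the largest median CV of the 9 classes, 67.4%. Ltbp2, a microfibril-bound protein of the latent TGF-beta binding family, held 251, 29 and 505 counts, or 23.9, 2.77 and 39.9 CPM, in sham 1, 2 and 3. Mfap4, an elastic fibre protein of vessel walls, held 370, 58 and 642 counts, or 35.3, 5.54 and 50.7 CPM. Sham 2 was 11.5-fold lower than the mean of the other hearts for Ltbp2 and 7.76-fold lower for Mfap4. Eln, which encodes elastin, was at 41.0, 16.7 and 76.8 CPM and had the largest excess of sham 3 over sham 1 in the class, 1.87-fold. Fbn1, the fibrillin backbone of the microfibril, held 1369, 566 and 1978 counts (131, 54.0 and 156 CPM). Exons of another annotated gene on the opposite strand cover 20.1% of the exon length of Fbn1, and whether the counting used strand is not known. Mfap5, another microfibril protein, held 338, 159 and 425 counts and was the steadiest of the class with a CV of 38.0%, its values in sham 1 and 3 being 32.2 and 33.5 CPM.

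The small leucine-rich proteoglycans coat collagen fibrils. Dcn, the gene of decorin, held 9983, 6207 and 12007 counts, or 953, 593 and 948 CPM in sham 1, 2 and 3. Sham 1 and sham 3 were level, and sham 2 was at 0.624 of them. Lum, the gene of lumican, was at 114, 62.4 and 125 CPM. Bgn, the gene of biglycan, held 5833, 2650 and 8000 counts (557, 253 and 631 CPM) and had the largest CV of the class, 41.7%, against 24.8% for Dcn. In all 3 genes sham 1 and 3 lay closer to each other than either did to sham 2.

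Lysyl oxidases join collagen and elastin molecules by covalent bonds. Loxl1, a lysyl oxidase linked to elastic fibres, held 758, 352 and 959 counts (72.3, 33.6 and 75.7 CPM). Loxl2, linked to fibrillar and basement membrane collagen, held 241, 93 and 394 counts (23.0, 8.88 and 31.1 CPM). Lox, the founding lysyl oxidase, held 69, 30 and 93 counts, and its 95% Poisson interval in sham 2, 1.93 to 4.09 CPM, lay under those of the other hearts, whose lower bounds were 5.12 and 5.92 CPM. Such intervals cover counting error only. Sham 2 was the lowest heart for each of the 3 enzymes, and sham 3 exceeded sham 1 by 1.05-fold for Loxl1 and 1.35-fold for Loxl2.

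Among the proteases, Mmp2 (gelatinase A) was at 104, 52.8 and 116 CPM. Mmp14, the membrane-bound protease that activates it, held 425, 217 and 566 counts (40.6, 20.7 and 44.7 CPM). The 2 genes were close to proportional across the hearts. Mmp3 (stromelysin 1) held 223, 81 and 175 counts and was highest in sham 1, at 21.3 CPM against 7.73 and 13.8 CPM. Timp1, a secreted inhibitor of metalloproteinases that is induced by inflammation, held 34, 28 and 105 counts. It had its excess in sham 3, at 8.29 CPM against 3.24 in sham 1 and 2.67 in sham 2. The 95% Poisson intervals of sham 1 (2.25 to 4.53 CPM) and sham 2 (1.78 to 3.86 CPM) overlapped, so the order of those hearts was not resolved for Timp1.

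The adhesive and matricellular glycoproteins were the least uniform class. Sparc, a collagen-binding protein, held 5404, 3247 and 6927 counts (516, 310 and 547 CPM) in sham 1, 2 and 3, and Fn1 was at 88.4, 61.2 and 133 CPM. Postn, the gene of periostin, a protein of activated fibroblasts and valves, held 1115, 294 and 1476 counts (106, 28.1 and 116 CPM). Thbs1, the gene of thrombospondin 1, an activator of latent TGF-beta, held 511, 64 and 925 counts (48.8, 6.11 and 73.0 CPM). Sham 2 was 3.97-fold lower than the mean of the others for Postn and 9.96-fold lower for Thbs1. Spp1, the gene of osteopontin, held 35, 1 and 77 counts, and the pooled ratio of sham 2 to the other hearts was 0.0197 with an exact 95% interval of 0.000495 to 0.112 for counting error. Ctgf, a target of TGF-beta and YAP signalling, went against this pattern in its values. Its exons overlap another gene over 23.2% of their length. It held 1226, 750 and 910 counts, or 117, 71.6 and 71.8 CPM, so that sham 1 was the high heart and sham 2 and 3 were level.

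The 3 TGF-beta ligands had the smallest median spread of the 9 classes. Tgfb1 held 614, 351 and 554 counts (58.6, 33.5 and 43.7 CPM) and Tgfb2 held 187, 104 and 172 (17.8, 9.93 and 13.6 CPM). Both were highest in sham 1, unlike the collagens. Tgfb3 held 271, 154 and 398 counts (25.9, 14.7 and 31.4 CPM) and was highest in sham 3. The sum of the 3 ligands was 0.867 times as high in sham 3 as in sham 1, where that of the fibrillar collagens was 1.47 times as high.

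The spread between hearts was set out by class. The median CV was 67.4% for the microfibril and elastic fibre genes, 54.7% for the fibrillar collagens and 53.0% for the type VI and XIV collagens. It was 48.1% for the adhesive glycoproteins, whose members ran from 28.1% (Sparc) to 94.4% (Spp1), 42.8% for the crosslinking enzymes and 42.2% for the proteases and Timp1. Basement membrane and network collagens stood at 39.2%, proteoglycans at 33.3% and TGF-beta ligands at 28.7%. The ranges of the classes overlapped, and with members sharing the same 3 hearts no test of the order was made. Taking the counting error off left the class medians nearly the same and from 67.3% to 27.6%, although the crosslinking enzymes (40.9%) and the proteases (41.8%) changed places. Of the 34 genes of at least 10 CPM, 29 had a CV of 30% or more, against 5.86% of all 8864 rows of that level. Their median CV was 43.0%, where that of all these rows was 9.32%.

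**Figure D2:**
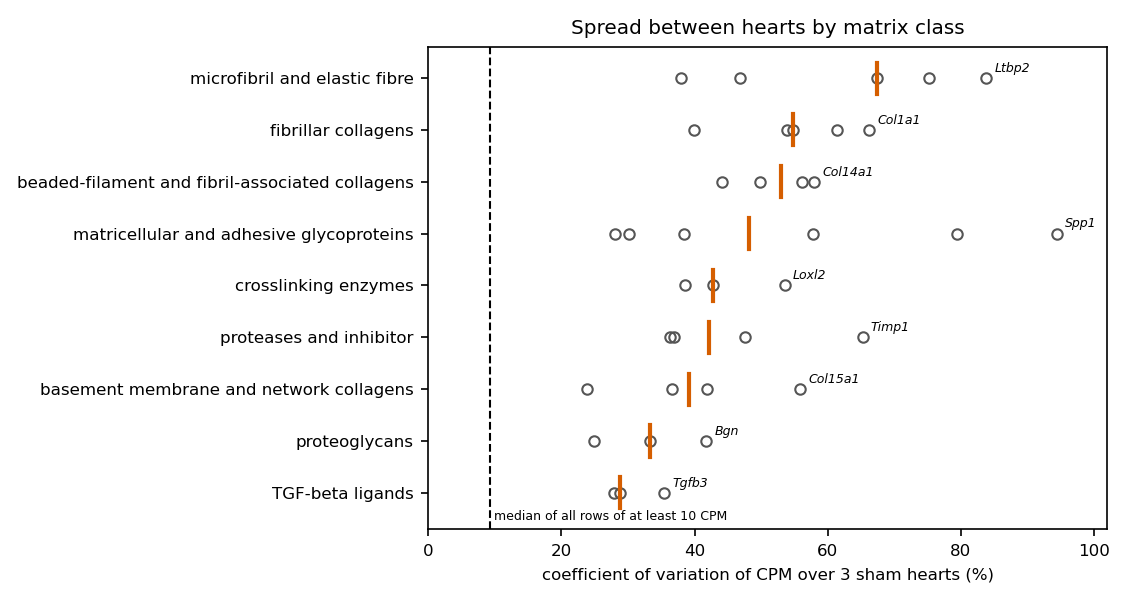
Coefficient of variation of CPM over the 3 sham hearts, in percent, for each matrix gene (circles) by class, with the class median as a vertical bar and the median of all rows of at least 10 CPM, 9.32%, as a dashed line. Every matrix gene lies to the right of the dashed line, and the class medians run from 67.4% to 28.7%.

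Much of this spread went with sham 2. Without that heart, the median CV of the 37 genes was 19.6% instead of 44.1%, against 7.33% over all rows of at least 10 CPM. The class order also changed. Between sham 1 and sham 3 alone, the fibrillar collagens led with a median CV of 30.2%, followed by the adhesive glycoproteins with 28.3% and the microfibril genes with 25.3%. The crosslinking enzymes stood at 7.69% and the proteoglycans to 6.58%. TGF-beta ligands were at 19.2%, level with the proteases.

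All 37 genes were lowest in sham 2, where 48.8% of the 12491 rows of at least 1 CPM were lowest. For 34 of the 37 the Poisson interval of sham 2 lay below those of both other hearts, and the exceptions were Timp1, Ctgf and Tgfb2. The share of all rows with such an interval was not computed, so this count describes counting error only. Ctgf was lowest in sham 3 instead under each of the 3 other scalings tried (TMM, DESeq2 size factors, and totals without cardiomyocyte markers). In 24 of the 34 genes of at least 10 CPM sham 2 was at or below 0.5 of the mean of the other hearts, against 2.59% of all rows of that level. The median ratio was 0.433 for these 34 genes and 0.956 for all rows. Just inside this limit lay Col4a1 at 0.4995, and just outside it Tgfb3 at 0.513. In the other direction 32 of the 37 were highest in sham 3, against 42% of rows of at least 1 CPM. The exceptions were Dcn, Mmp3, Ctgf, Tgfb1 and Tgfb2, all highest in sham 1.

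Some lists of markers of other cells were also lower in sham 2, and others were not. Of all rows of at least 1 CPM, 48.8% were lowest in sham 2. The 11 fibroblast markers outside the list summed to 2646, 1607 and 2721 CPM, and 10 of them were lowest in sham 2. Most of that sum was Gsn, the gene of gelsolin, at 2127, 1229.6 and 2211 CPM, and the median ratio of the 11 markers was 0.673. The exception was Scara5, highest there at 41.4 CPM. Sham 2 was at 0.599 of the other hearts for the fibroblast sum, and 32 of the 37 matrix genes had a lower ratio than that. Over all rows of at least 10 CPM the 5th percentile of this ratio was 0.623. Divided by this sum, and so largely by Gsn, the 37 genes had a median CV of 25.8% instead of 44.1%. Sham 2 was then lowest for 29 of the 37, and the share of all rows after this division was not computed. The sum of the 5 activated fibroblast markers was at 0.416 in sham 2. Its highest gene, Acta2, was at 135, 121 and 210 CPM, a ratio of 0.699. Tagln was at 47.8, 16.3 and 85.6 CPM, Cilp at 42.3, 7.35 and 86.7 CPM and Comp at 342, 4 and 689 counts. The sum of the 7 mural markers, mostly Rgs5 and Abcc9, gave a ratio of 0.991, and the median ratio of the 7 was 0.883. Of the 7, 4 were lowest in sham 2, near the share of all rows. Among them Myh11, the smooth muscle myosin, was at 66.6, 45.7 and 140.02 CPM. The sums gave 0.850 for the 8 endothelial and 0.687 for the 9 measured macrophage markers. Of the 8 endothelial markers, 7 were lowest in sham 2 and 5 highest in sham 3. All 9 macrophage markers were lowest in sham 2 and highest in sham 3, as most of the matrix genes were. Of all rows of at least 1 CPM, 42% were highest in sham 3. The cardiomyocyte sum had the opposite direction, with a ratio of 1.11. The sum of the 6 mesothelial markers ran from 4.77 CPM in sham 2 to 25.5 CPM in sham 1, with Krt19 and Lrrn4 at 0 counts in sham 2. Wt1, the highest of the 6 on average, differed little, at 5.92, 4.49 and 5.37 CPM, and made up most of the sum in sham 2. The 5 blood genes ran from 82.7 CPM in sham 2 to 485 CPM in sham 3. The part of these cells in the spread of the matrix genes was not tested.

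**Figure D3:**
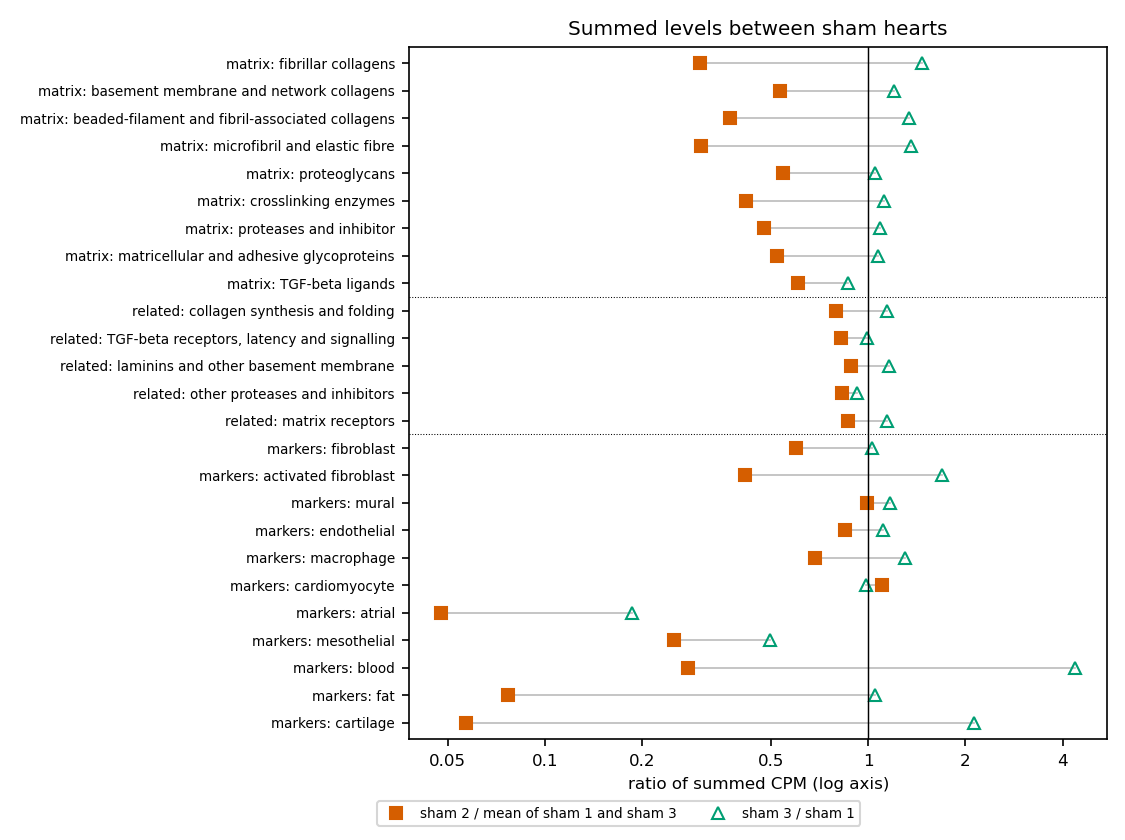
Ratio of summed CPM in sham 2 to the mean of sham 1 and 3 (squares) and in sham 3 to sham 1 (open triangles), on a log axis, for the 9 matrix classes, 5 lists of related genes and 11 marker lists. The matrix squares lie between 0.303 and 0.609, the related genes between 0.796 and 0.884, and the atrial markers at 0.0477.

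Genes that make, fold, bind or sense the matrix had smaller CVs over the 3 hearts than most of the 37. The 13 genes of collagen synthesis and folding had a median CV of 17.9%, and 10 of 13 were lowest in sham 2. Such counts stand beside the 48.8% of all rows of at least 1 CPM that were lowest there. The collagen chaperone Serpinh1 was at 277, 222 and 340 CPM and the prolyl hydroxylase subunit P4hb at 292, 255 and 297 CPM. Adamts2, which trims the ends of procollagen, came closest to the collagens, with sham 2 at 0.514 of the others. Laminins and other basement membrane genes had a median CV of 13.3%, with 8 of 10 lowest in sham 2. Hspg2, the gene of perlecan and the highest of them, was at 726, 704 and 839 CPM, and Col18a1 was the widest at 26.6, 10.98 and 36.9 CPM. TGF-beta receptors, latency proteins and SMADs had a median CV of 12.98%, and 8 of 11 were lowest in sham 2, all but Smad2, Smad7 and Tgfbr3. Ltbp4, a relative of Ltbp2, was at 600, 466 and 573 CPM. Of 7 other proteases and inhibitors 4 were lowest in sham 2, near the share of all rows. Timp4, a heart-enriched inhibitor, was highest there, at 58.0 CPM against 43.2 and 47.0. The 5 matrix receptors were led by Itgb1 at 489 ± 37.7 CPM (SD, n = 3), and 4 of 5 were lowest in sham 2.

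Ratios within a heart do not depend on the scaling of its library. They were taken per kb of transcript for 10 pairs chosen with the values known. Col1a1 was at 0.895, 0.517 and 0.831 of Col1a2 in sham 1, 2 and 3, although both chains are built into the same molecule. The exact 95% interval of that ratio in sham 2, 0.464 to 0.576, lay below those of sham 1 (0.838 to 0.956) and sham 3 (0.792 to 0.871). Col3a1 and Col1a1 kept closer to each other, with ratios of 1.94, 1.86 and 1.66. Col4a1 to Col4a2 was 1.15, 0.916 and 1.23, and here too the interval of sham 2, 0.875 to 0.960, lay below those of the other hearts, from 1.11 and from 1.198. Col6a1 to Col6a2 was 1.03, 1.23 and 1.04. Whether such a ratio is above or below 1 depends on the transcript length, while its differences between hearts do not. With all annotated exons as the length, Col1a1 stood at 24.8 and Col1a2 at 14.8 CPM per kb, and Col6a1 at 28.6 and Col6a2 at 16.1. The ratio of the fibrillar Col1a1 to the basement membrane Col4a1 had the widest spread of the 10 pairs, with 0.317, 0.169 and 0.404 and a CV of 40.1%. Mmp2 to Mmp14 had the smallest, with 2.69, 2.68 and 2.74 and a CV of 1.21%. Elastin to fibrillin (Eln to Fbn1) was 0.976, 0.961 and 1.53, so here sham 3 and not sham 2 was the heart that differed. Decorin to biglycan was 2.35, 3.22 and 2.07, highest in sham 2.

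**Figure D4:**
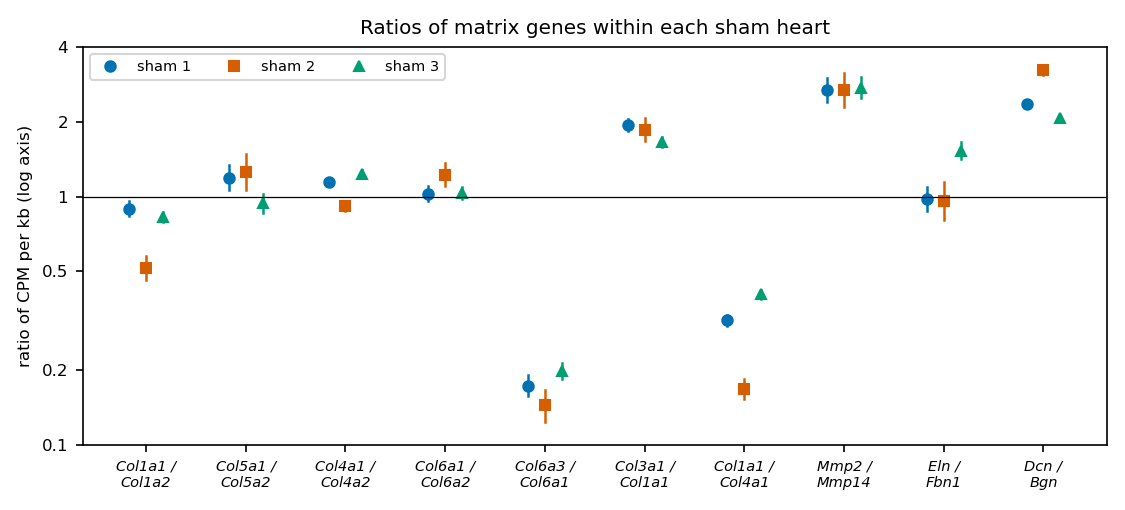
Ratio of CPM per kb between 2 matrix genes in sham 1 (circles), sham 2 (squares) and sham 3 (triangles), on a log axis, with bars for the exact 95% interval of counting error. Col1a1 over Col1a2 and Col1a1 over Col4a1 were lowest in sham 2, at 0.517 and 0.169, while Mmp2 over Mmp14 stayed between 2.68 and 2.74.

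The composition of the matrix transcripts also differed between the hearts. Fibrillar collagens made up 13.8%, 9.97% and 17.1% of the counts of the 37 genes in sham 1, 2 and 3, and proteoglycans 29.1%, 31.5% and 25.9%. Basement membrane and network collagens held 23.3%, 26.6% and 23.9%. The class shares of sham 2 were lower than in the other hearts for the fibrillar, type VI and XIV, microfibril and crosslinking classes. They were higher for the basement membrane, proteoglycan, adhesive glycoprotein and TGF-beta classes, but not for every member of these. Sparc held 59.6% of the adhesive sum and was 1.71-fold lower in sham 2 than the mean of the others. Fn1 was 1.81-fold and Ctgf 1.32-fold lower, against 3.97-fold for Postn and 9.96-fold for Thbs1, and Spp1 held 1 count there. Col15a1 at 0.309 and Bgn at 0.426 of the other hearts also lay below the ratio of the summed 37 genes, 0.474. In sham 3 the share of the fibrillar collagens exceeded that of the adhesive glycoproteins, 17.1% against 14.4%, whereas in sham 1 and 2 it was the smaller of the 2.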

How the data were processed

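RNA from 6 mouse heart samples was measured as sequencing counts per gene symbol. The deposited table holds the authors' raw counts as whole numbers, 1 column per sample, matched to samples by column name. The tools named, without versions, per the submitters' processing notes are HTSeq, HISAT2, Trimmomatic and DESeq, and the build is mm9. Strand settings and gene models are not known.

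The 37 members, their classes and all lists were chosen with earlier results of these data known. Row labels were checked by Spearman correlation between columns. CKD columns failed it and were left out, so no test between groups was run. CPM is the count divided by the column total, times 1000000. The CV, and the CV after the mean Poisson variance was subtracted, describe spread over 3 sham hearts. The subtraction was tried on simulated counts averaged over many genes. That does not test the CV of a single gene or a class median. Single libraries got exact 95% Poisson intervals. Lengths came from GENCODE M21 and promoters from RefSeq, both on GRCm38, so no gene coordinates are given for mm9. Exons of Fbn1, Spp1 and Ctgf overlap other annotated genes over 20.1%, 18.8% and 23.2% of their length, which leaves their counts less certain. Protein features could not be computed. All members were named, with counts by heart for the highest, the most and the least variable of each class. Alternatives were TMM (edgeR 4.0.16), DESeq2 1.42.0 size factors, totals without cardiomyocyte markers, thinning and leaving out hearts.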

Additional observations from a re-analysis of the deposited data

How the results depend on the processing

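No paired analysis was possible because the labels of the CKD columns did not name their values and no test between groups was run. The between-group Spearman median was -0.0552 over all rows and 0.00058 over rows with at least 10 counts on average in sham. Under TMM, DESeq2 size factors and totals without cardiomyocyte markers, 36 of the 37 genes were lowest in sham 2, and 37 after thinning. The shares of all rows of at least 1 CPM lowest there were 34.8%, 33.7%, 45.5% and 49.4% in that order. The median CV of the members was 4.73 times that of all rows of at least 10 CPM. It was 2.80 times that of all rows with a count, and 2.67 to 7.85 times when 1 heart was left out, lowest without sham 2 and highest without sham 1. The cause was not tested. Relative to the median CV of all members, leaving out 1 heart gave 0.336 to 0.813 for proteoglycans, 0.392 to 1.09 for crosslinking enzymes and 0.354 to 0.980 for TGF-beta ligands. For the other classes each value moved by less than 1.5 times. Without its highest gene a class summed to 656.6 CPM for basement membrane and network collagens, 581 for proteoglycans, 26.6 for crosslinking enzymes, 54.3 for proteases, 310.3 for adhesive glycoproteins and 37.8 for TGF-beta ligands. Of 259 alternative levels, all moved by less than 1 SD, which leaving out 1 of 3 hearts cannot exceed. Using all annotated exons as the length moved 8 of 37 levels per kb by more. Depth left sham 2 unresolved from another heart for Timp1 and Tgfb2. Ctgf was level in sham 2 and sham 3, at 71.6 and 71.8 CPM.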

Other observations

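The collagen family outside the list was read after its values were seen. Of 31 other Col rows 17 averaged at least 1 CPM, with a median CV of 53.3%. Of these 17, 15 were lowest in sham 2, against 48.8% of all rows of at least 1 CPM. Col5a3, a further type V chain, was at 31.1, 10.3 and 42.5 CPM in sham 1, 2 and 3. Among the other type IV chains, Col4a5 was at 40.8, 36.9 and 52.0 CPM and Col4a4 at 15.3, 4.58 and 18.4 CPM. Col8a2 held 32, 2 and 79 counts. Col20a1 and Col27a1 were the 2 genes that were not lowest in sham 2, with 39, 47 and 84 counts and 39, 43 and 42 counts.

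Relatives of Ctgf were also read after their values were seen. Ccn1, a secreted target of YAP signalling, held 1431, 523 and 1102 counts and, like Ctgf, was highest in sham 1, at 137 CPM against 49.9 and 87.0. Ccn3, Ccn4 and Ccn5 were highest in sham 3 and lowest in sham 2, with 138, 39 and 205 counts for Ccn3. Which cells these counts came from was not tested.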
